A study of Mus musculus with 12 samples.

Results

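A set of Notch pathway genes, 10 of the 16288 genes listed in at least 1 library, were followed through differentiation of a mouse myoblast line with and without the bromodomain inhibitor PFI-3. They were chosen by symbol for their role in the pathway: the receptors Notch1, Notch2 and Notch3, the ligands Dll1, Jag1 and Jag2, the target genes Hes1, Hey1 and Heyl, and the inhibitor Numb. The choice was made with earlier results of these data known. C2C12, the line used, is an immortalized mouse myoblast line that exits proliferation and forms multinucleated myotubes when serum is lowered. PFI-3 binds the bromodomains of BRM and BRG1, the ATPases of the SWI/SNF chromatin remodelling complexes. RNA was collected from proliferating cells in growth medium with 10% fetal bovine serum (GM), and 24 h and 48 h after a change at 90% confluence to differentiation medium with 2% horse serum and insulin (DM 24h and DM 48h). At each stage, cells received the solvent DMSO or 50 uM PFI-3, beginning 12 h before harvest in GM or as a 12 h pretreatment in DM, with fresh compound every 24 h in DM. Each of the 6 groups has 2 libraries, A and B, described as biological duplicates, and all 12 come from a single cell line of the same genotype, so that values speak for this line alone.

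Notch receptors are single-pass membrane proteins that are cleaved after binding a Delta or Jagged ligand on a neighbouring cell. The freed intracellular domain enters the nucleus, joins the DNA-binding protein RBPJ and switches on genes of the HES and HEY families, which encode transcriptional repressors. In skeletal muscle the pathway is known for holding satellite cells and myoblasts in an undifferentiated state, and Numb, which promotes removal of Notch from the cell surface, counters it.

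Library totals lay between 12576374 and 13658352 expected counts, and the 10 most abundant genes took 5.11 to 6.29% of them. The GM pairs were the least alike: the standard deviation across genes of the log2 ratio of library B to library A was 0.333 in GM with DMSO and 0.316 in GM with PFI-3, against 0.138 to 0.145 in the 4 DM pairs. All 10 genes passed the low-count filter, and 9 of them were listed in every library; Heyl was listed in 11. Values below are CPM, which are counts scaled to each library's total after adjustment by the trimmed mean of M-values (TMM). Folds and tests come from the quasi-likelihood test of edgeR over all 12545 genes kept, with Benjamini-Hochberg adjustment, and calls required an adjusted p under 0.05. Because all groups share 1 estimate of the spread in that model, the wide GM pairs enter every test. A fit of the 8 DM libraries alone is given where it changes a call on the 10 genes. It was added after the data were seen and takes its spread from the closer DM pairs alone. Its p-values measure change against that spread, and whether further cultures would vary more was not tested. The myoblast markers Myod1, Myf5 and Des had at least 1548, 488 and 3744 counts in every library. With bulk RNA, fewer cells of a type and less RNA per cell cannot be told apart. Where groups are said not to overlap, 2 libraries are set against 2, which an exact permutation test cannot bring below p = 0.333. The share of all genes without overlap was not computed, so non-overlap is a description only.

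Promoter sequence from RefSeq (GRCm38.p6) was at hand for 7 of the 10 genes, as 10 windows of 250 bases upstream of an annotated start. Those of Notch1 and Dll1 are shown because this receptor and this ligand both rose on differentiation and both fell with PFI-3 at DM 24h. The Notch1 gene (identifier 18128) spans chr2:26457902-26503822, and its window is chr2:26503823-26504072, minus strand. The Dll1 gene (13388) spans chr17:15367354-15376932, and the window before its outer start is chr17:15376933-15377182, minus strand. Capitals mark E-boxes, the letters CANNTG to which MyoD and other basic helix-loop-helix factors bind.
Notch1: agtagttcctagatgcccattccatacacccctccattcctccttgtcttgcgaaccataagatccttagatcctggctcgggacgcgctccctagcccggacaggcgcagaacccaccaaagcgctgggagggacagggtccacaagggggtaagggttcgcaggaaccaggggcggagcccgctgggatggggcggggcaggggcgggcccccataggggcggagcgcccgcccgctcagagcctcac
Dll1: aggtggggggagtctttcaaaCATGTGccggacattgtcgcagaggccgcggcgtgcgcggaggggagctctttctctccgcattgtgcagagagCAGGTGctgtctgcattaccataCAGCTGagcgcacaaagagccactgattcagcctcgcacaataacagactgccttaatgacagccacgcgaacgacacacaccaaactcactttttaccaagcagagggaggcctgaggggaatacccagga
The Dll1 window shown held 3 E-boxes, 1 of them CAGCTG, and the Notch1 window held none. Another Dll1 window, chr17:15375824-15376073, held 1 E-box and 0 CAGCTG. Sequence just downstream of that other window was found in an annotated Dll1 transcript, while that downstream of the window shown was not. A match to CANNTG, which reads alike on both strands in this search, occurred in 66.2% of 32851 promoter windows of that length, and CAGCTG, itself a form of CANNTG, in 13%. TGGGAA, the core of the RBPJ motif, was sought on both strands and matched in 0 of the 10 windows, and in 21.6% of all windows. No window was at hand for Hes1, Hey1 and Heyl, so the promoters of the target genes were not searched. The absence of these letters says nothing about binding elsewhere in the genes.

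When DMSO-treated cells left GM, the receptors and the target genes of the pathway rose, Delta-like 1 rose most steeply among the ligands, and Jag2 fell. By the edgeR test, 7 of the 10 genes were higher and 1 was lower at DM 24h than in GM, beside 60.6% of all tested genes called, 30.6% higher and 30.0% lower. Their median log2 fold change was 1.56, against 0.02 over all genes tested. At DM 48h against GM, 8 were higher and 1 was lower, beside 73.1% of all tested genes (37.2% higher, 35.9% lower), with a median of 1.62 against 0.03. Both comparisons use the same GM libraries. From DM 24h to DM 48h, 2 were higher and 1 was lower, beside 48.1% of all tested genes (24.2% higher, 23.9% lower).

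**Figure D1:**
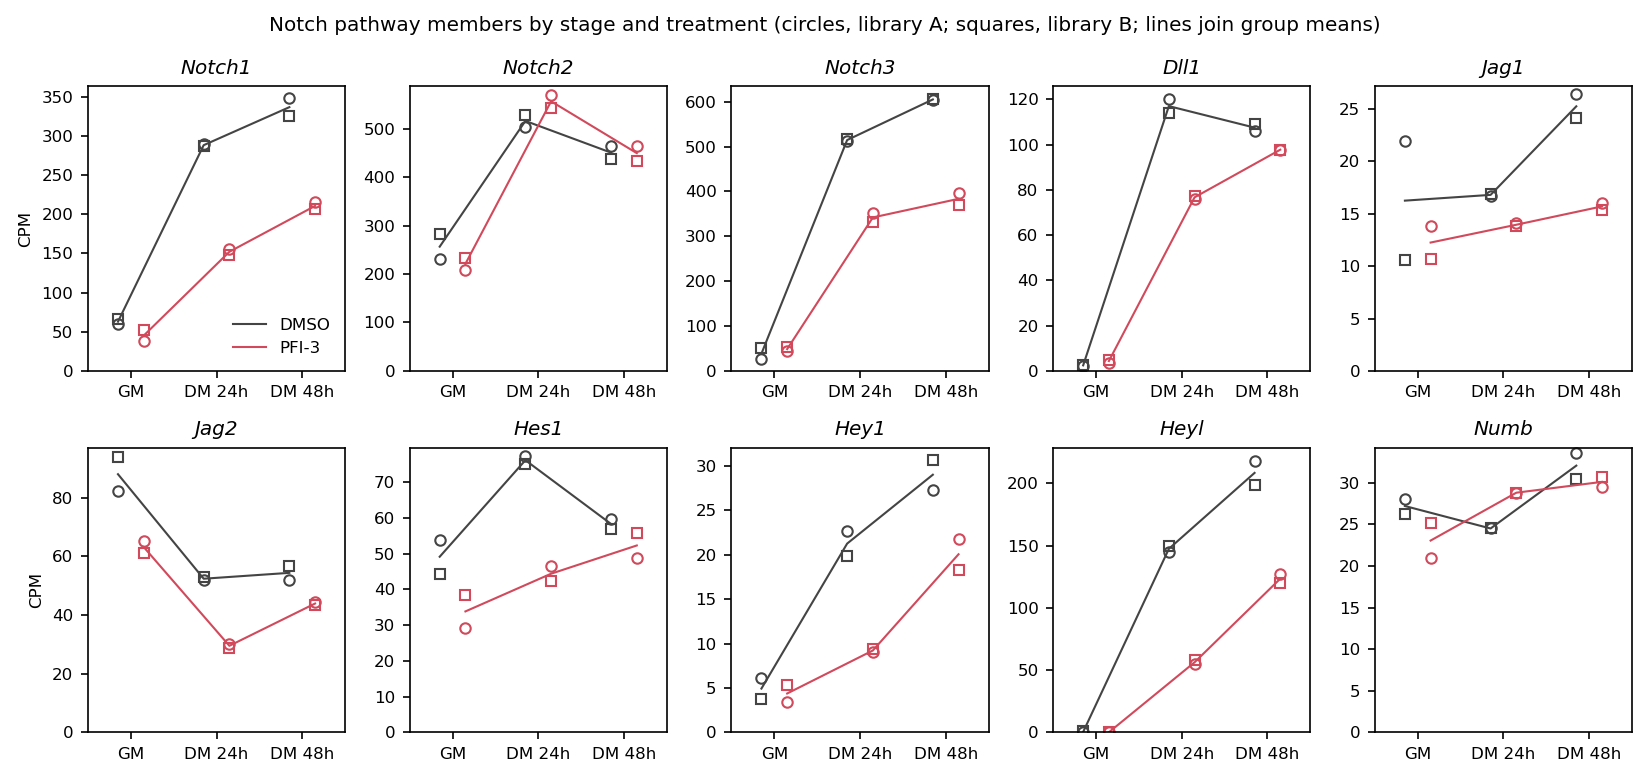
CPM of each of the 10 genes (vertical axes, each from 0 to the gene's own maximum) by stage, for DMSO (grey) and 50 uM PFI-3 (red). Circles are library A, squares library B and lines join the means of 2 libraries; Notch3 with DMSO goes from 26.1 and 50.9 in GM to 604 and 606 at DM 48h, while the red points for Notch1, Notch3, Hey1 and Heyl lie below the grey ones at both DM stages.

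Among the receptors, Notch3, which is also known from vascular smooth muscle, changed most. Its CPM with DMSO was 26.1 and 50.9 in GM (libraries A and B), 513 and 516 at DM 24h, then 604 and 606 by DM 48h. The GM pair differed more than either DM pair, and no GM library overlapped a DM library. The log2 fold change at DM 24h was 3.74 (SE 0.21, edgeR adjusted p = 2.56e-08), a 13.3-fold rise. It was 3.34 without GM library A and 4.30 without GM library B. Notch1, the receptor most studied in muscle progenitors, went from 59.5 and 66.1 in GM to 289 and 287 at DM 24h, then 348 and 325 by DM 48h. The 3 stages did not overlap, and the rise from GM to DM 24h was 2.19 (SE 0.11, adjusted p = 1.21e-08). The step from DM 24h to DM 48h, 0.23, was not called (adjusted p = 0.0934), though it was in the fit of the 8 DM libraries (adjusted p = 1.34e-05). Notch2, the most abundant receptor in GM, had 231 and 282 in GM, 504 and 528 at DM 24h, then 464 and 437 by DM 48h. Its rise at DM 24h was 1.01 (SE 0.09, adjusted p = 2.11e-06), a ratio of 2.01, the smallest of the 3 receptors. The steps of Notch3 (0.23) and Notch2 (-0.20) from DM 24h to DM 48h were not called (edgeR adjusted p = 0.313 and 0.101). The fit of the 8 DM libraries called both (adjusted p = 3.57e-06 and 0.000117).

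These unequal rises changed the makeup of the receptor transcripts. On the length-scaled FPKM deposited by the authors, the summed receptor level was 29.8 and 40.1 in GM with DMSO, and 144 and 146 at DM 24h. Notch2 made up 69.7 and 66.7% of that sum in GM, and 33.5 and 34.5% at DM 24h. Notch3 made up 10.4 and 15.9% in GM, 45.2 and 44.7% at DM 24h, then 48.5 and 50.2% by DM 48h. The share of Notch1 stayed between 17.3 and 23.4% in all 6 DMSO libraries. Notch2 was thus the leading receptor transcript in both GM libraries and Notch3 in the 4 DM libraries with DMSO.

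Of the ligands, Dll1, a Delta-type ligand that activates Notch in the adjacent cell, was scarce in GM. It had 2.19 and 2.73 CPM there with DMSO, from 28 and 37 counts, and 120 and 114 at DM 24h, then 106 and 109 by DM 48h. Every DM library was far above both GM libraries, and the log2 fold change at DM 24h was 5.56 (SE 0.12, edgeR adjusted p = 6.22e-12), a 47.2-fold rise. The DM stages differed by -0.12 (adjusted p = 0.244), a difference called in the fit of the 8 DM libraries (adjusted p = 0.0441). Jag2, a Jagged ligand, went the other way, from 82.1 and 93.8 in GM to 51.9 and 52.8 at DM 24h, then 52.0 and 56.7 by DM 48h. Its log2 fold change was -0.75 (SE 0.08, adjusted p = 7.77e-06) at DM 24h, with no overlap. Jag1, the other Jagged ligand, had 21.9 and 10.6 in GM, so that the GM pair spanned the DM 24h values of 16.7 and 16.9. At DM 48h it had 26.4 and 24.1, above both GM libraries. Its step from DM 24h to DM 48h, 0.59, was not called (adjusted p = 0.0591), though it was in the fit of the 8 DM libraries (adjusted p = 1.49e-06). Its change from GM was 0.05 (SE 0.25, adjusted p = 0.862) at DM 24h and 0.64 (SE 0.24, adjusted p = 0.0281) at DM 48h. The second value was 0.57 (adjusted p = 0.124) without DM 48h library A, 0.71 (adjusted p = 0.0614) without DM 48h library B and 0.20 (adjusted p = 0.207) without GM library B. It was 1.26 (adjusted p = 1e-05) without GM library A.

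In FPKM, the leading ligand transcript changed from Jag2 to Dll1. Jag2 made up 81.4 and 89.5% of the summed ligand FPKM in GM with DMSO and 25.3 and 26.4% at DM 24h. Dll1 made up 2.57 and 3.07% in GM, 68.8 and 67.4% at DM 24h, then 63.7 and 63.5% by DM 48h. The summed ligand FPKM itself was 23.8 and 26.1 in GM, 51.7 and 50.1 at DM 24h, then 47.3 and 48.9 by DM 48h.

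**Figure D2:**
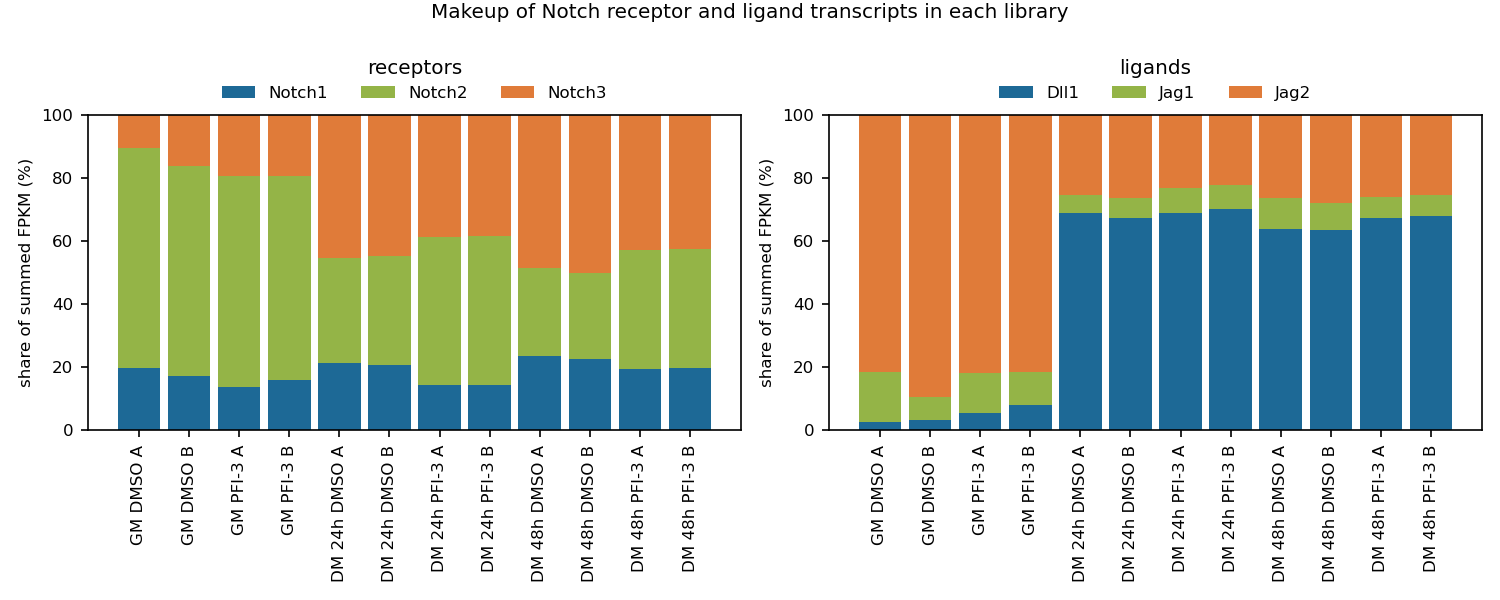
Share (%) of each receptor in the summed FPKM of Notch1, Notch2 and Notch3 (left) and of each ligand in the summed FPKM of Dll1, Jag1 and Jag2 (right), 1 bar per library. Dll1 holds at most 7.85% of the ligand sum in the 4 GM libraries and at least 63.5% in the 8 DM libraries, while Notch2 holds at least 64.9% of the receptor sum in the GM libraries and at most 47.4% in the DM libraries.

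The 3 target genes, each encoding a basic helix-loop-helix repressor, followed different courses with DMSO. Heyl had 0 and 11 counts in the GM libraries (0 and 0.812 CPM), 145 and 150 CPM at DM 24h, and 218 and 199 CPM at DM 48h. The fitted log2 fold change from GM was 8.43 (SE 0.27, edgeR adjusted p = 1.99e-10) at DM 24h. It rests on the 11 counts of GM library B. Without GM library A, the log2 fold change of Heyl was lower, 7.49 at DM 24h and 7.99 at DM 48h. Against GM library A alone, whose 0 counts allow up to 3, Heyl was at least 628-fold higher at DM 24h. At DM 48h it was at least 886-fold higher than in that library. Its rise from DM 24h to DM 48h was 0.50 (SE 0.13, adjusted p = 0.0088). That call was lost without DM 24h library A (0.47, adjusted p = 0.0741), DM 24h library B (0.53, adjusted p = 0.0519) or DM 48h library A (0.43, adjusted p = 0.0836), but was made in the fit of the 8 DM libraries (adjusted p = 2.96e-12). Hey1 went from 6.11 and 3.76 in GM to 22.7 and 19.8 at DM 24h, then 27.3 and 30.7 by DM 48h. The stages did not overlap, and the change from GM to DM 24h was 2.11 (SE 0.22, adjusted p = 4.74e-06). The Hey1 step from DM 24h to DM 48h, 0.45, was not called (adjusted p = 0.0565), though it was in the fit of the 8 DM libraries (adjusted p = 0.000108). Hes1, the target most widely used as a readout of Notch activity, peaked at DM 24h. Its CPM was 53.9 and 44.4 in GM, 77.3 and 75.0 at DM 24h, then 59.8 and 56.8 by DM 48h. It rose by 0.63 (SE 0.12, adjusted p = 0.000853) to DM 24h and fell by 0.39 (SE 0.12, adjusted p = 0.0216) from there to DM 48h. The fall was not called when any 1 of its 4 libraries was left out (adjusted p from 0.0681 to 0.127), and was in the fit of the 8 DM libraries (adjusted p = 1.87e-06). At DM 48h the change from GM was 0.25 (adjusted p = 0.0967).

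Numb, the inhibitor, varied least with DMSO, with 28.1 and 26.3 CPM in GM, 24.5 in both DM 24h libraries, and 33.6 and 30.5 at DM 48h. The change from GM to DM 24h was -0.15 (SE 0.10, edgeR adjusted p = 0.218). It rose by 0.39 (SE 0.10, adjusted p = 0.00732) from DM 24h to DM 48h, a call lost without DM 48h library A (0.32, adjusted p = 0.0687). The change of 0.24 from GM to DM 48h (adjusted p = 0.0481) was lost without that library (0.16, adjusted p = 0.263) and without GM library B (0.19, adjusted p = 0.17).

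Ordered by FPKM, which allows levels to be compared between genes, the pathway was led by Hes1 in GM with DMSO and by Notch3 at both DM stages. In GM, Hes1 had a mean of 33.5, Notch2 23.8 and Jag2 21.4, and the values of Notch2 and Jag2 overlapped. Numb followed with 8.06, and Notch1 (6.43), Notch3 (4.75), Jag1 (2.86) and Hey1 (2.21) each overlapped their neighbour in the order. Dll1 with 0.705 and Heyl with 0.090 came last. At DM 24h no neighbours overlapped: Notch3 had 65.2, Hes1 53.9, Notch2 49.4, Dll1 34.7, Heyl 33.1, Notch1 30.5, Jag2 13.1, Hey1 9.95, Numb 7.51 and Jag1 3.09. At DM 48h, Heyl was second with 44.7 behind Notch3 with 73.5, and Notch2 (41.3) and Hes1 (39.5) overlapped.

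With PFI-3 at DM 24h, 2 receptors, 2 ligands and all 3 target genes were lower than with DMSO, and Notch2, Jag1 and Numb were not called. The edgeR test called 7 of the 10 genes lower and 0 higher, beside 23.6% of all tested genes called, 11.4% lower and 12.2% higher. At an unadjusted p under 0.05 it gave 7 lower and 1 higher, and DESeq2 and limma each called 6 lower and 0 higher. The median log2 fold change of the 10 was -0.69, against -0.00 over all genes tested. The fit of the 8 DM libraries, added after the data were seen, called all 10, 8 of them lower.

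**Figure D3:**
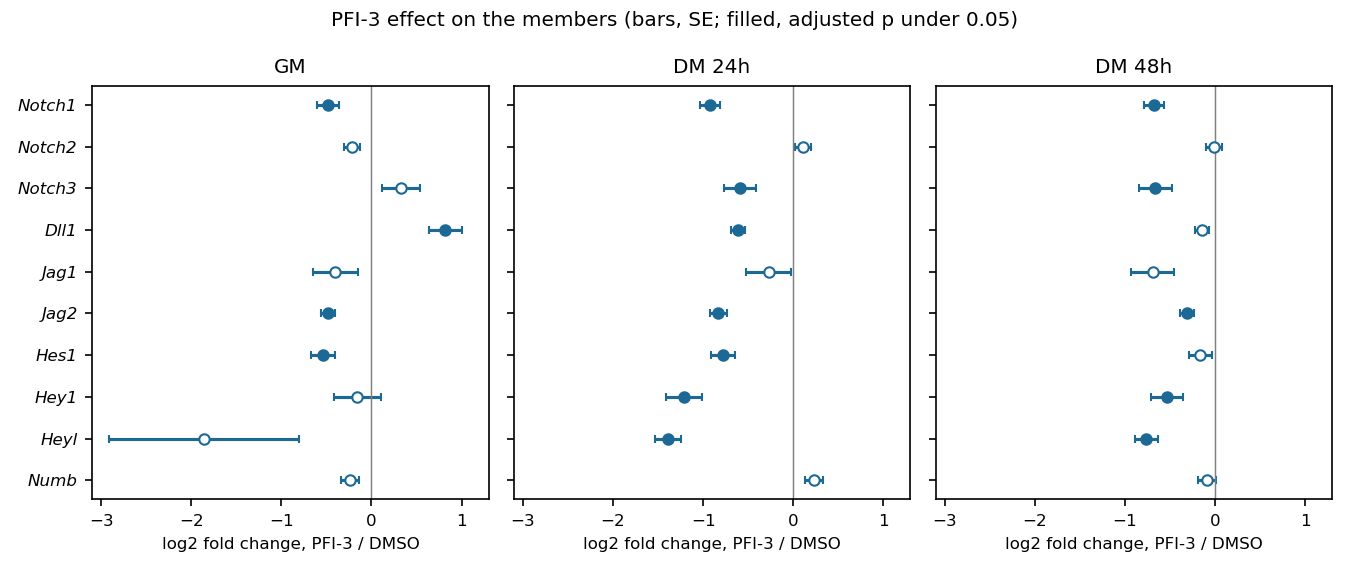
Log2 fold change of PFI-3 against DMSO (horizontal axes) for the 10 genes at each stage, with bars of 1 SE from the edgeR model of 12 libraries; filled points have an adjusted p under 0.05. Filled points lie left of 0 for 3 genes in GM, for 7 at DM 24h and for 5 at DM 48h, and right of 0 only for Dll1 in GM (0.82).

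Heyl and Hey1 had the largest falls at DM 24h. Heyl was at 145 and 150 CPM with DMSO and at 54.9 and 57.8 with PFI-3. The groups were far apart, and the log2 fold change was -1.39 (SE 0.14, edgeR adjusted p = 3.45e-05), 2.62-fold lower. Hey1 was at 22.7 and 19.8 with DMSO and at 9.06 and 9.38 with PFI-3, a change of -1.21 (SE 0.20, adjusted p = 0.00115). Hes1 was at 77.3 and 75.0 with DMSO and at 46.5 and 42.3 with PFI-3, a change of -0.78 (SE 0.13, adjusted p = 0.00103). For all 3 targets, every PFI-3 library lay below every DMSO library, and both PFI-3 libraries of Hes1 lay within or below the range of its DMSO libraries in GM, 44.4 to 53.9.

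Of the receptors, Notch1 fell most at DM 24h. Its level was 289 and 287 CPM with DMSO and 156 and 148 with PFI-3, without overlap, a change of -0.92 (SE 0.11, edgeR adjusted p = 9.27e-05) or 1.89-fold. Notch3 was at 513 and 516 with DMSO and at 353 and 331 with PFI-3. These groups were also apart, and the change was -0.59 (SE 0.18, adjusted p = 0.0346). The Notch3 call was lost with DESeq2, with limma on FPKM and when any 1 of the 4 DM 24h libraries was left out (adjusted p from 0.131 to 0.179). In the fit of the 8 DM libraries, which leaves out the unequal GM pair of this gene, it was the same -0.59 with an adjusted p of 4.12e-16. Notch2 was at 504 and 528 with DMSO and at 570 and 543 with PFI-3, a change of 0.11 (SE 0.09, adjusted p = 0.428). The Notch2 groups did not overlap, and the fit of the 8 DM libraries called the difference (adjusted p = 0.0338). As a share of summed receptor FPKM, Notch2 was at 47.1 and 47.4% with PFI-3 and at 33.5 and 34.5% with DMSO, and Notch1 at 14.3% in both PFI-3 libraries against 21.2 and 20.7%.

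Both Dll1 and Jag2 were lower with PFI-3 at DM 24h. Dll1 was at 120 and 114 CPM with DMSO and at 76.0 and 77.4 with PFI-3, a change of -0.61 (SE 0.08, edgeR adjusted p = 0.000253). Jag2 was at 51.9 and 52.8 with DMSO and at 30.1 and 28.9 with PFI-3, a change of -0.83 (SE 0.09, adjusted p = 4.18e-05). Neither gene's groups overlapped. The share of Dll1 in the summed ligand FPKM was 69.0 and 70.1% with PFI-3 beside 68.8 and 67.4% with DMSO, while the sum was 33.8 and 33.9 beside 51.7 and 50.1. Jag1 was at 16.7 and 16.9 with DMSO and at 14.1 and 13.8 with PFI-3, a change of -0.27 (SE 0.25, adjusted p = 0.474). Numb was at 24.5 in both DMSO libraries and at 28.8 in both PFI-3 libraries, a change of 0.23 (SE 0.10, adjusted p = 0.12). The fit of the 8 DM libraries called Jag1 (adjusted p = 0.0427) and Numb (adjusted p = 0.0268). The calls on Notch1, Dll1, Jag2, Hes1, Hey1 and Heyl at DM 24h were made in each of 11 other settings and with each of the 4 libraries left out.

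At DM 48h, Notch1, Notch3, Jag2, Hey1 and Heyl were lower with PFI-3, and Dll1 and Hes1 were not called in the model of 12 libraries. The edgeR test called 5 lower and 0 higher, beside 27.4% of all tested genes called, 14.0% lower and 13.4% higher. At an unadjusted p under 0.05 it gave 6 lower and 0 higher, DESeq2 called 4 lower and 0 higher, and limma on FPKM called 1 or 2 lower and 0 higher, depending on the pseudocount. The median log2 fold change of the 10 was -0.42, against 0.00 over all genes tested, and the fit of the 8 DM libraries called 7, all lower.

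Notch1 was at 348 and 325 CPM with DMSO and at 215 and 206 with PFI-3 at DM 48h. The groups did not overlap, and the change was -0.68 (SE 0.11, edgeR adjusted p = 0.000531). It was called in each of 11 other settings and with each of the 4 libraries left out. Notch3 was at 604 and 606 with DMSO and at 397 and 370 with PFI-3, a change of -0.66 (SE 0.18, adjusted p = 0.0184). As at DM 24h, leaving out any 1 library ended the Notch3 call (adjusted p from 0.0829 to 0.126), and the fit of the 8 DM libraries made it (adjusted p = 6.18e-18). Notch2 was at 464 and 437 with DMSO and at 465 and 434 with PFI-3, a difference of -0.01 (SE 0.09, adjusted p = 0.973), and its groups overlapped.

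Among the targets at DM 48h, Heyl was at 218 and 199 CPM with DMSO and at 127 and 120 with PFI-3. These groups did not overlap, and the change was -0.76 (SE 0.13, edgeR adjusted p = 0.00137). Hey1 was at 27.3 and 30.7 with DMSO and at 21.8 and 18.3 with PFI-3, a change of -0.53 (SE 0.18, adjusted p = 0.0443). The Hey1 call was lost without any 1 of its 4 libraries (adjusted p from 0.0875 to 0.266) and made in the fit of the 8 DM libraries (adjusted p = 1.46e-05). Hes1 was at 59.8 and 56.8 with DMSO and at 48.7 and 55.9 with PFI-3, a change of -0.16 (SE 0.13, adjusted p = 0.396), and only a narrow gap separated the groups.

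The PFI-3 changes of the ligands Dll1 and Jag2 were nearer 0 at DM 48h than at DM 24h. Dll1 was at 106 and 109 CPM with DMSO and at 97.8 and 97.7 with PFI-3. The change was -0.14 (SE 0.08, edgeR adjusted p = 0.219), and the fit of the 8 DM libraries called it (adjusted p = 0.0255). Jag2 was at 52.0 and 56.7 with DMSO and at 44.4 and 43.4 with PFI-3, a change of -0.31 (SE 0.08, adjusted p = 0.0171). The Jag2 call was lost without DM 48h DMSO library B (-0.25, adjusted p = 0.134), PFI-3 library A (-0.32, adjusted p = 0.0731) or PFI-3 library B (-0.29, adjusted p = 0.0985). Jag1 was at 26.4 and 24.1 with DMSO and at 16.0 and 15.4 with PFI-3, a change of -0.69 (SE 0.24, adjusted p = 0.051) that missed the threshold although the groups were well apart. It passed with DESeq2 and in the fit of the 8 DM libraries (adjusted p = 1.57e-07), which leaves out the unequal GM pair of Jag1. Numb was at 33.6 and 30.5 with DMSO and at 29.5 and 30.7 with PFI-3, a change of -0.09 (SE 0.10, adjusted p = 0.534), and its groups overlapped.

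Set beside the earlier DMSO stage, all genes but Hey1 and Numb were lower with PFI-3 at DM 48h than with DMSO at DM 24h, without overlap. Notch1 was at 215 and 206 CPM with PFI-3 at DM 48h beside 289 and 287 with DMSO at DM 24h. Notch3 was at 397 and 370 beside 513 and 516, Dll1 at 97.8 and 97.7 beside 120 and 114, and Heyl at 127 and 120 beside 145 and 150. Hes1 was at 48.7 and 55.9 beside 77.3 and 75.0, and Notch2 at 465 and 434 beside 504 and 528. Jag2 was at 44.4 and 43.4 beside 51.9 and 52.8, and Jag1 at 16.0 and 15.4 beside 16.7 and 16.9. Hey1, at 21.8 and 18.3, overlapped its DMSO values at DM 24h of 22.7 and 19.8. Numb, at 29.5 and 30.7, was above its DMSO value of 24.5 in both DM 24h libraries. These pairs differ in both time and treatment and were not tested. With DMSO alone, Dll1, Hes1 and Notch2 were also lower at DM 48h than at DM 24h, without overlap.

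The muscle genes Myog and Ckm and the cell cycle gene Mki67 also differed in CPM with PFI-3 at these stages, with no test given here. Myog, which encodes myogenin, was at 847 and 838 CPM with DMSO and at 412 and 400 with PFI-3 at DM 24h, and at 1822 and 1845 against 1214 and 1179 at DM 48h. Ckm, the muscle creatine kinase, was at 74.6 and 71.7 against 28.8 and 28.0 at DM 24h. Mki67, a proliferation marker, was at 739 and 740 against 511 and 538 at DM 24h, and at 237 and 222 against 419 and 407 at DM 48h. The part of the state of differentiation in the Notch results was not tested. Markers of endothelial cells, which also express Notch genes, were at or near 0: Tie1 was listed in no library, no other marker of the 6 passed 15 counts, and their summed CPM was 0.228 to 0.929 at DM 24h and 0.235 to 1.80 at DM 48h. The 3 markers of smooth muscle and pericytes summed to at most 1.39 CPM in any library.

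In proliferating cells, PFI-3 was associated with less Notch1, Jag2 and Hes1 and with more Dll1. The edgeR test called 1 gene higher and 3 lower, beside 11.6% of all tested genes called, 5.46% higher and 6.15% lower, and the median of the 10 was -0.32 against -0.01. Notch1 was at 59.5 and 66.1 CPM with DMSO and at 38.1 and 51.9 with PFI-3, a change of -0.48 (SE 0.12, adjusted p = 0.0224). Jag2 was at 82.1 and 93.8 with DMSO and at 65.2 and 61.1 with PFI-3, a change of -0.48 (SE 0.08, adjusted p = 0.00345). Hes1 was at 53.9 and 44.4 with DMSO and at 29.2 and 38.5 with PFI-3, a change of -0.54 (SE 0.13, adjusted p = 0.0221). None of these groups overlapped. Dll1 was at 2.19 and 2.73 with DMSO and at 3.71 and 4.99 with PFI-3 (51 and 70 counts), a change of 0.82 (SE 0.18, adjusted p = 0.0141), again without overlap. All 4 calls were lost in a fit of the 4 GM libraries alone, where edgeR called 0 of the 10 genes and 38 of all genes. In that fit 4 genes had an unadjusted p under 0.05, and DESeq2 on all 12 libraries called 4. With the library letter as a block, the fit of the GM libraries called 2, Notch1 and Jag2, and 924 of all genes. Leaving out single libraries also ended 3 of the calls. Notch1 was at -0.28 (adjusted p = 0.0741) without PFI-3 library A. Dll1 was at 0.67 (adjusted p = 0.0777) without DMSO library A and at 0.58 (adjusted p = 0.138) without PFI-3 library B. Hes1 was at -0.39 (adjusted p = 0.0939) without DMSO library A and at -0.35 (adjusted p = 0.0968) without PFI-3 library A.

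The other 6 genes were not called in GM. Notch2 was at 231 and 282 CPM with DMSO and 208 and 234 with PFI-3 (-0.22, SE 0.09, edgeR adjusted p = 0.154), and Numb at 28.1 and 26.3 and at 21.0 and 25.1 (-0.24, SE 0.10, adjusted p = 0.148). Notch3 was at 26.1 and 50.9 with DMSO, a pair that enclosed its PFI-3 value of 45.0 but not that of 52.2 (0.33, SE 0.21, adjusted p = 0.32). Jag1 was at 21.9 and 10.6 and at 13.8 and 10.7 (-0.40, SE 0.25, adjusted p = 0.32). Hey1 was at 6.11 and 3.76 and at 3.42 and 5.34 (-0.16, SE 0.26, adjusted p = 0.72). Except for Numb, the treatment groups of these genes overlapped. Heyl had 0 and 11 counts with DMSO and 1 and 2 with PFI-3, so that its difference in GM was not detectable at this depth. Set against 3 counts per library in GM with PFI-3, Heyl with PFI-3 was 261-fold higher at DM 24h and 571-fold higher at DM 48h. These 3 counts exceed the 1 and 2 seen but are not an upper limit for them.

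Whether the PFI-3 effect differed between stages was tested as an interaction, and Dll1 differed in all 3 stage pairs. Exposure to PFI-3 was also longer at the later stages, so stage and length of exposure cannot be told apart. Between DM 24h and GM, the edgeR interaction called 1 of the 10 genes, beside 3.37% of all tested genes (1.78% with a positive difference, 1.59% with a negative one). Dll1 was 0.82 higher with PFI-3 in GM and fell by 0.61 with it at DM 24h, a difference of -1.42 (SE 0.19, adjusted p = 0.003) that was called under each alternative. Between DM 48h and GM, 2 genes were called, beside 14.5% of all tested genes (8.25% positive, 6.29% negative). These were Dll1 (-0.96, SE 0.19, adjusted p = 0.00653), lost without GM PFI-3 library B (-0.73, adjusted p = 0.0504), and Notch3 (-0.99, SE 0.28, adjusted p = 0.0325). The Notch3 difference was lost without 5 of the 8 libraries compared, GM PFI-3 library B and each of the 4 DM 48h libraries (adjusted p from 0.0661 to 0.113). It was -1.55 without GM DMSO library B and -0.59 without GM DMSO library A, both called.

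Between DM 48h and DM 24h, 3 of the 10 genes had a PFI-3 effect that was less negative at DM 48h, beside 12.1% of all tested genes called, 7.12% in that direction and 4.97% in the other. They were Dll1 (0.47, SE 0.11, edgeR adjusted p = 0.0188), Jag2 (0.52, SE 0.12, adjusted p = 0.0153) and Hes1 (0.62, SE 0.18, adjusted p = 0.0408). Without any 1 of the 8 libraries the Dll1 and Hes1 differences were not called (adjusted p from 0.0578 to 0.0951 and from 0.0624 to 0.167). The Jag2 difference was lost without 5 of them, DM 24h DMSO library A or B, DM 24h PFI-3 library B, or library A of either DM 48h group (adjusted p from 0.0528 to 0.0764). The fit of the 8 DM libraries, which are also the only libraries compared here, called 8 of the 10, all but Notch2 and Notch3. Of the 8 called, 6 had a positive difference and 2, Jag1 and Numb, a negative one. For Notch1, Notch3, Hey1 and Heyl no difference between the DM stages was called in the model of 12 libraries.

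Across the 12 libraries, Notch3, Dll1 and Heyl had near-parallel profiles, with Notch1, Notch2 and Hey1 close behind. The Pearson correlation of log2 CPM was 0.99 between Notch3 and Dll1, 0.99 between Notch3 and Heyl, 0.98 between Dll1 and Heyl, and 0.97 between Notch1 and Heyl. Notch2 had 0.94 with both Dll1 and Heyl, and Hey1 had 0.96 with Notch1 but 0.75 with Notch2. Hes1 was less like Heyl (0.65) than Hey1 was (0.90), and Jag2 ran against Notch2 (-0.76) and Dll1 (-0.72). The 12 points share stage, treatment and line, so that these values describe the common course from GM to DM and carry no test.

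The rest of the pathway was described with a list of 50 further genes, of which 48 were listed in some library and 40 were tested. By the edgeR test with PFI-3, 5 were higher and 1 was lower in GM, beside 11.6% of all tested genes called (5.46% higher, 6.15% lower). At DM 24h, 7 were higher and 5 lower, beside 23.6% (12.2% higher, 11.4% lower). At DM 48h, 6 were higher and 9 lower, beside 27.4% (13.4% higher, 14.0% lower). The median log2 fold changes of the list were 0.03, 0.04 and -0.03. With DMSO, 18 were higher and 8 lower at DM 24h than in GM, beside 60.6% of all tested genes called. At DM 48h, 18 were higher and 6 lower than in GM, beside 73.1%. The ligands Dll3 and Dll4 and the HES and HEY genes Hes2, Hes3, Hes7 and Hey2 had at most 6 counts in any library. They were not tested, and Dlk1 and Hes5 were listed in no library.

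**Figure D4:**
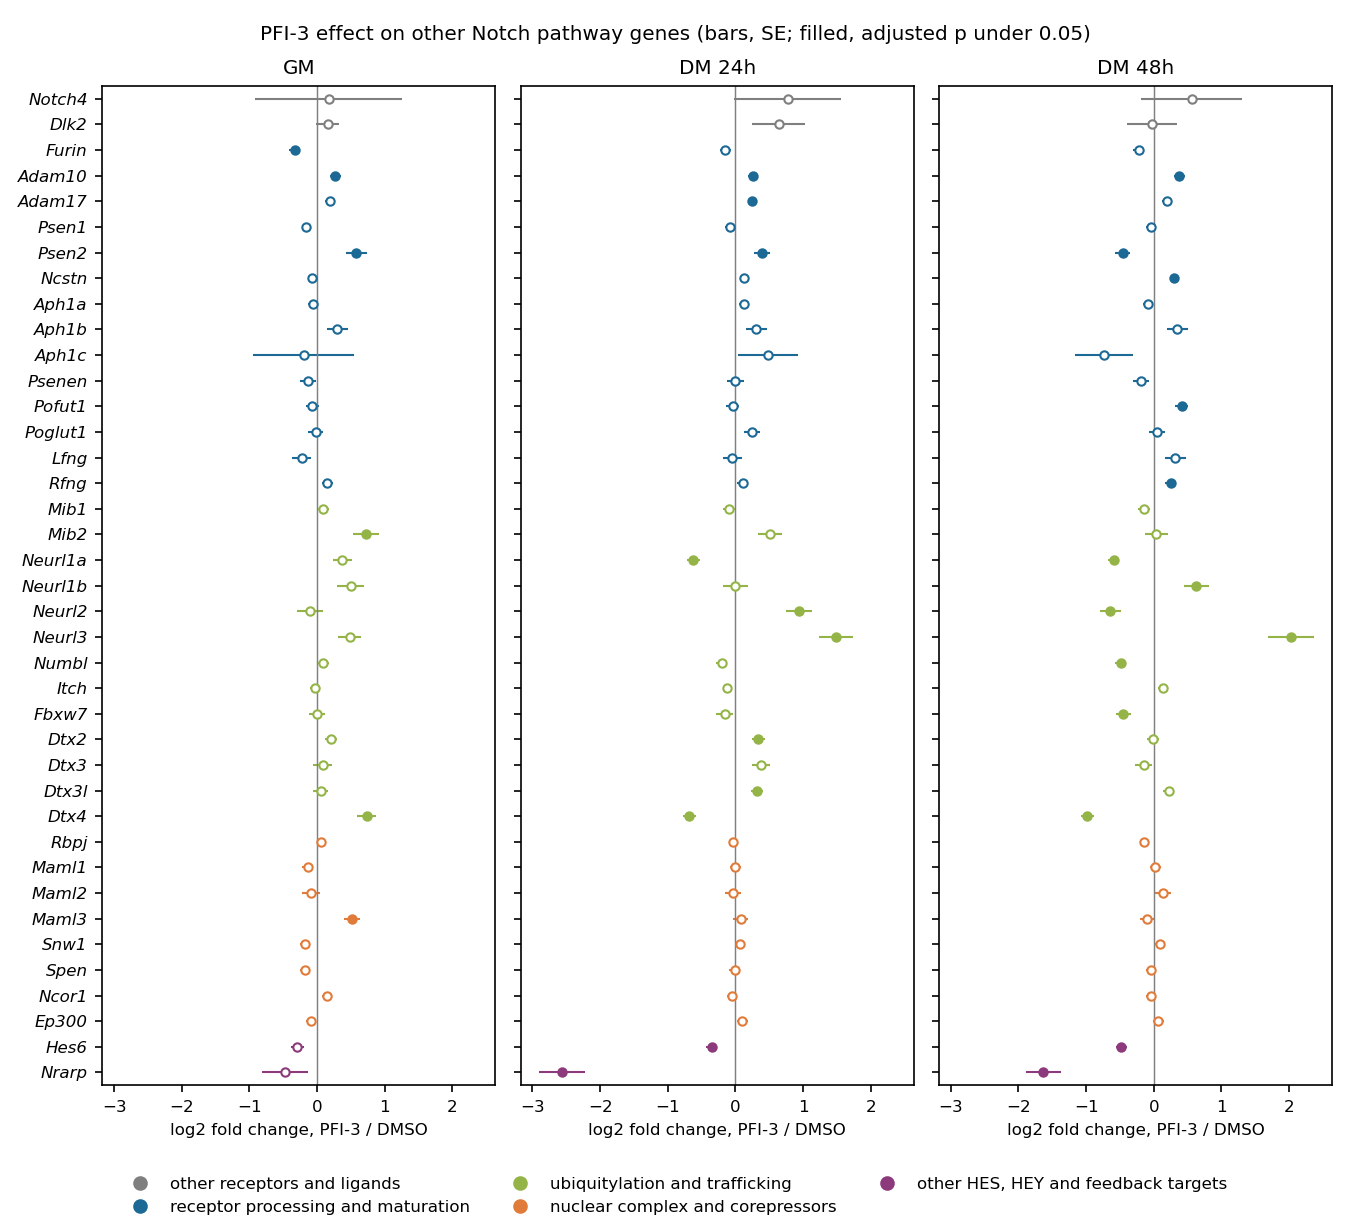
Log2 fold change of PFI-3 against DMSO (horizontal axes, the same range in each panel) for 39 other genes of the Notch pathway, coloured by role, with bars of 1 SE from the edgeR model; filled points have an adjusted p under 0.05. Nrarp lies farthest left at DM 24h (-2.57) and DM 48h (-1.63) and Neurl3 farthest right (1.48 and 2.03).

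The 2 tested genes from the group of other HES, HEY and feedback genes, Hes6 and Nrarp, were both lower with PFI-3 at both DM stages. Nrarp encodes a small ankyrin-repeat protein that is induced by Notch and limits its signal. It was at 5.47 and 5.03 CPM with DMSO and 0.913 and 0.839 with PFI-3 at DM 24h, and at 8.86 and 10.1 against 2.04 and 4.06 at DM 48h. The groups did not overlap at either stage, and the changes were -2.57 (SE 0.34, edgeR adjusted p = 0.000233) and -1.63 (SE 0.26, adjusted p = 0.000612). Leaving out single libraries moved the second value between -2.21 and -1.22, always called. Hes6, a HES-family gene that is known to promote myogenic differentiation rather than repress it, was at 104 and 99.5 against 83.2 and 76.2 at DM 24h and at 203 and 202 against 141 and 150 at DM 48h. It fell by 0.35 (adjusted p = 0.00951) and by 0.48 (adjusted p = 0.000862), and the first call was lost without DMSO library A or PFI-3 library B (highest adjusted p = 0.101).

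Of 14 tested genes for receptor processing, 2 were higher and 1 was lower with PFI-3 in GM, beside 11.6% of all tested genes called. At DM 24h, 3 were higher and 0 lower, beside 23.6%, while DM 48h had 4 higher and 1 lower, beside 27.4%. Adam10, the protease that makes the ligand-dependent cut in Notch, was higher with PFI-3 at each stage, by 0.27 (adjusted p = 0.0452), 0.26 (adjusted p = 0.0293) and 0.38 (adjusted p = 0.00297) by the edgeR test. Its DM 48h level was 113 and 120 CPM with DMSO and 150 and 154 with PFI-3, and that call held with each library left out. The DM 24h call was lost without any 1 of its libraries (adjusted p from 0.0936 to 0.163), and the GM call without DMSO library A or PFI-3 library B (highest adjusted p = 0.174). Psen2, a catalytic subunit of gamma-secretase, turned from higher to lower, with 0.58 in GM, then 0.39 at DM 24h and finally -0.46 at DM 48h (adjusted p = 0.0306, 0.0379 and 0.00839). The difference between DM 48h and GM, -1.05, was called (adjusted p = 0.00322), also with each of 8 libraries left out. Each of the 3 single-stage calls of Psen2 was lost without 2, 4 and 3 of the 4 libraries, in that order (highest adjusted p = 0.149, 0.184 and 0.0812).

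Among 13 tested genes for ubiquitylation and trafficking, 2 were higher and 0 lower with PFI-3 in GM, beside 11.6% of all tested genes called. At DM 24h, 4 were higher and 2 lower, beside 23.6%, while DM 48h had 2 higher and 5 lower, beside 27.4%. Dtx4, a Deltex-family ubiquitin ligase, was higher with PFI-3 in GM and lower at both DM stages. Its CPM was 11.1 and 8.78 against 18.8 and 14.1 in GM, 159 and 159 against 96.5 and 101 at DM 24h, and 236 and 225 against 118 and 116 at DM 48h. The changes were 0.73 (edgeR adjusted p = 0.00713), -0.68 (adjusted p = 0.0005) and -0.98 (adjusted p = 2.16e-05), each called with each of its libraries left out. Neurl1a, a Neuralized-type ligase that acts on ligands, fell by 0.62 (adjusted p = 0.000455) and by 0.59 (adjusted p = 0.000196) at the DM stages. Neurl2 was 0.94 higher at DM 24h (adjusted p = 0.00461) and fell by 0.64 at DM 48h (adjusted p = 0.012), a difference of -1.58 (adjusted p = 0.00161), though its single-stage calls were lost without 2 and 3 of the 4 libraries (highest adjusted p = 0.0574 and 0.101). Neurl3, a low-count gene, had 17 and 16 counts with DMSO and 51 and 44 with PFI-3 at DM 24h, and 6 and 6 against 30 and 22 at DM 48h. The changes of 1.48 (adjusted p = 0.00141) and 2.03 (adjusted p = 0.000818) were called with each library left out.

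Among the nuclear components, Rbpj, which encodes the DNA-binding partner of the cleaved receptor, was at 143 to 182 CPM over all libraries and was not called by edgeR with PFI-3 at any stage. Of the 2 tested genes among other receptors and ligands, Notch4 and Dlk2, edgeR called neither with PFI-3. Dlk2, a Delta-like transmembrane protein, had the largest stage change called on this list at DM 24h, with 17.2 and 18.9 CPM with DMSO in GM and 0.555 and 1.24 at DM 24h, a change of -4.31 (SE 0.26, adjusted p = 5.71e-08).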

How the data were processed

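RNA sequencing tables of 12 C2C12 libraries were used, 1 per library, each holding an expected count and an FPKM for every gene listed. Per the submitters' processing notes, the deposited tables involved HISAT, StringTie, Cufflinks, Bowtie, RSEM and DESeq2 with genome build mm10; their roles, order and versions are not given in the sources used here. The expected counts deposited by the authors are estimates and were rounded to whole numbers; 93.3 to 93.7% were already whole within 0.005, including all values of the 10 genes. The FPKM values deposited by the authors are scaled by length and library size and were used for levels between genes and for an alternative test. A gene missing from a table was taken as 0: 6963 gene and group cases had 1 library only, with a median of 1 count in it. Every row named a gene.

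The main test was edgeR 4.0.16 (R 4.3.3), a quasi-likelihood fit with TMM scaling and filterByExpr over all 12 libraries and 6 groups, with Benjamini-Hochberg adjustment over 12545 genes and a threshold of 0.05. SE is the absolute log2 fold change divided by the square root of F. With 2 libraries against 2, an exact permutation test cannot go below p = 0.333, so the test across genes was used. Alternatives were a replicate block, median-ratio size factors, no filter or a mean of at least 10 counts, DESeq2 1.42.0, limma 3.58.1 on log2(FPKM + 1) and log2(FPKM + 0.1), fits of only the libraries compared, each library left out, and, chosen after seeing the data, a fit of the 8 DM libraries. Left-out fits leave 1 library in a group, which is then assumed to vary like the other groups. Scripts were tested on simulated data.

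The 10 genes and all lists were chosen with earlier results of these data known. All 10 are named. Genes of the 50-gene pathway list are named if called in at least 2 of the 3 PFI-3 comparisons or if they had the largest called change in a comparison, or, for genes below the filter, to give their counts; Rbpj was added as the factor that binds DNA for the pathway. A gene of this list that meets the rule is not reported here. The genes most like each target are the 3 with the highest Pearson correlation of log2 CPM over 12 libraries out of 10366 genes averaging at least 5 CPM. The labels call the pairs biological duplicates but do not say what the letters A and B stand for. Deviations of same-letter libraries correlated at 0.395 in GM and at 0.013 and 0.030 in DM between treatments. Same-letter GM libraries thus shared part of their deviation. The main model leaves the letters out, and the fits with a block take them in. Depth limits precision: the limit that a count of 0 allows is 3 counts. Intervals and floors cover counting error only. Promoter windows and gene positions are from RefSeq on GRCm38.p6. Gene lists for other cell types covered adipocytes (summed CPM at most 0.0818), osteoblasts (at most 0.390), leukocytes (1.19 to 9.55, mostly Cd68) and neural cells (8.30 to 69.7, mostly Tubb3), beside those given with the results.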

Additional observations from a re-analysis of the deposited data

Results flagged for a closer look

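Differences of the PFI-3 effect between stages, tested as interactions with edgeR over all 12545 genes, singled out 6 values among the 10 genes, 3 of them of Dll1. The Dll1 effect at DM 24h minus that in GM was -1.42 (log2, SE 0.19, adjusted p = 0.003), from 0.82 in GM and -0.61 at DM 24h. Both PFI-3 libraries were above both DMSO libraries in GM and below them at DM 24h. The Dll1 effect at DM 48h minus that in GM was -0.96 (SE 0.19, adjusted p = 0.00653). The Notch3 effect at DM 48h minus that in GM was -0.99 (SE 0.28, adjusted p = 0.0325), and it was -0.59 without GM DMSO library A and -1.55 without GM DMSO library B, whose Notch3 values were 26.1 and 50.9 CPM.

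The effect at DM 48h minus that at DM 24h was 0.47 for Dll1 (SE 0.11, edgeR adjusted p = 0.0188), 0.52 for Jag2 (SE 0.12, adjusted p = 0.0153) and 0.62 for Hes1 (SE 0.18, adjusted p = 0.0408). All 3 moved toward 0 at the later stage. The tests with DM 24h and those with DM 48h against GM share the GM libraries. Length of exposure to PFI-3 differed along with stage in all of these tests, and their parts cannot be told apart.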

How the results depend on the processing

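None of the 42 called values of the 10 genes changed direction under any alternative run. Of 1380 single-gene values, 1181 kept direction and side of the threshold, 101 lost the call, 71 gained it and 27 reversed. The reversals were all of values uncalled in the main test. The causes were not tested unless stated. Counts called among the 10 genes were as follows. For PFI-3 in GM, 4 became 2 with limma on FPKM of all listed genes, 0 in the fit of only the GM libraries (4 at an unadjusted p under 0.05 in edgeR), 2 there with the block, and 2 to 6 with a library left out. At DM 24h, 7 became 6 with a library left out and 10 without GM libraries. At DM 48h, 5 became 2, 1 and 2 in the 3 limma fits, 8 in the compared libraries with the block, 7 without GM libraries, and 2 to 3 with a library left out. For DM 48h against DM 24h with DMSO, 3 became 5 without a filter, 8 in only the libraries compared, 9 without GM libraries, and 0 to 2 with a library left out (0 without DM 48h library A, 4 there unadjusted). For DM 24h against GM left-out counts were 8 to 9 and for DM 48h against GM 7 to 10. For the interaction of DM 24h with GM, 1 became 2 in both limma fits with pseudocount 1 and in the compared libraries with the block, and 1 to 4 with a library left out. At DM 48h against GM, 2 became 1 with DESeq2, with limma and pseudocount 0.1, and in only the libraries compared, and 1 to 4 left out. At DM 48h against DM 24h, 3 became 8 in the compared libraries, with or without the block, and 0 to 1 left out (4 to 5 unadjusted where 0).

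With the replicate block the counts were 4, 7 and 6 for PFI-3 by stage, 8, 8 and 4 for the stages, and 1, 2 and 3 for the interactions. The letters are only shared labels. The compared-libraries fit with a block within each stage was not run for the stage comparisons, where it leaves no residual degrees of freedom.

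Reversed in limma were Notch2 with PFI-3 at DM 48h (0.08) and Jag2 from DM 24h to DM 48h (-0.01). The Heyl effect also reversed at DM 24h against GM (-1.19 and -0.91) and at DM 48h against GM (-0.57 and -0.24). Of these, limma called the Heyl values -1.19 and -0.57, with pseudocount 1 (adjusted p = 0.000817 and 0.0155). With a library left out, PFI-3 changes in GM ranged from -0.06 to 0.90 for Notch3, -0.84 to 0.22 for Jag1, -0.52 to 0.22 for Hey1 and -2.80 to 3.61 for Heyl. Notch2 with PFI-3 at DM 48h ranged from -0.06 to 0.04, Jag1 at DM 24h against GM with DMSO from -0.39 to 0.67, and Jag2 at DM 48h against DM 24h with DMSO from -0.00 to 0.12. The effect at DM 24h against GM ranged from -0.48 to 0.57 for Jag1 and -5.00 to 1.42 for Heyl, and that at DM 48h against GM from -0.91 to 0.15 for Jag1, -4.36 to 2.04 for Heyl and -0.40 to 0.04 for Notch1.

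Over all genes, calls for PFI-3 moved from 1456 in GM to 38 in only the libraries compared, 924 there with the block and 2742 without GM DMSO library B. They moved from 2966 at DM 24h to 5603 and 5718 in the same fits, 5558 without GM libraries, and to 1323 to 1471 with a library left out. At DM 48h they moved from 3438 to 5646, 6077, 5841 and 1961 to 2092. Interaction calls over all genes moved from 423 (DM 24h with GM) to 92, 803 and 89 to 1002, from 1824 (DM 48h with GM) to 1033 and 1018 to 2935, and from 1517 (DM 48h with DM 24h) to 4170, 4344 and 794 to 861, in only the libraries compared, there with the block where given, and with a library left out. Heyl in GM, with 0 to 11 counts, is limited by depth.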

Other observations

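The genes whose profile over the 12 libraries was most like that of each target differed from target to target. For Heyl they were Capn6 (Pearson r of log2 CPM 0.999), Drp2 (0.997) and Scn7a (0.996). For Hey1 they were Ripor2 (0.983), Ctrb1 (0.978) and Ccdc134 (0.978), and for Hes1 Cd80 (0.941), Trim8 (0.929) and Immp1l (0.928). The libraries share stage and treatment, and these values, picked as the highest of 10366 genes, carry no test.

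With PFI-3 the order of the pathway's FPKM levels at DM 24h was led by Notch2 with a mean of 55.0, followed by Notch3 with 44.8, while Notch3 led with DMSO. Numb, with 9.08, stood above Jag2 (7.65) and Hey1 (4.46) with PFI-3 and below both with DMSO. At DM 48h with PFI-3, Notch3 led again with 49.5, and Hey1 (9.51) and Numb (9.32) overlapped.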
